A study of Ovis aries with 36 samples.

Results

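The MYBPC1 region lies on sheep chromosome 3 from 170450235 to 170553298 of Oar_v3.1. It holds the locus of the Ensembl gene ENSOARG00000015112 together with every other assembled locus whose span overlaps that interval, whether annotated or not. By this rule 4 of 31136 loci were found, 1 with an Ensembl gene and 3 without, which are XLOC_022047, XLOC_022048 and XLOC_022049. All 4 were given exactly the same span of 103064 bases, so the files do not say which exons or introns each one covers. The files carry no gene symbols. The name MYBPC1 comes from the study, whose position for an unannotated transcript assigned to that gene falls inside the span of all 4 loci. The files do not tell which of them is that transcript or whether ENSOARG00000015112 bears the name. Of the 3 unannotated loci, XLOC_022047 came nearest to the fold change that the study lists for its transcript, as given below.

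MYBPC1 encodes slow-type myosin binding protein C, a protein of the thick filament that sits at regular intervals in the A-band of the sarcomere and binds myosin as well as actin. Skeletal muscle also has a fast-type relative, MYBPC2, and the heart has its own form, MYBPC3. The slow-type gene is spliced into many variants and is found in fast fibers as well as in slow fibers.

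RNA-Seq was done on 36 samples, which were 9 muscles from each of 4 unrelated Poll Dorset cross-bred lambs slaughtered at 14 months. The lambs were fed soy crop and grain sorghum after weaning, and a piece of the mid superficial belly of each muscle was taken right after slaughter. The labels name no treatment and set the groups by muscle, and the number of each sample is that of its animal. Whether the groups also differ in handling, such as the sequencing lane, is not in the labels. From the hind limb came SM (Semimembranosus), ST (Semitendinosus), AD (Adductor), RF (Rectus femoris), GM (Gluteus medius) and GB, the cranial part of the Gluteobiceps. From the loin came LL (Longissimus lumborum) and PM (Psoas major), and from the shoulder SS (Supraspinatus). SS is known as a slow oxidative muscle and ST as a fast glycolytic one. Each sample is a piece of whole muscle, in which fewer cells of a type and less RNA per cell cannot be told apart. The files pair no identifier with a name, so that general markers of muscle fibers and markers of other cell types were not analysed here. Fiber-type genes were, where the study's coordinates gave them a name.

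The libraries held 3699148 to 6427422 counts, and animal 1 had the lowest total in 9 of 9 muscles. In all libraries 6 loci, each with over 5% of the counts of at least 1 sample, took 74.1% to 84.0% of the counts. Levels are given in CPM, read counts divided by the library size after TMM normalization and scaled up, and 3 counts in a sample correspond to 0.366 to 1.03 CPM. All 4 loci of the region were among the 12461 loci with enough counts to be tested.

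The annotated locus ENSOARG00000015112 held most of the reads of the region, with 207138 counts over the 36 samples (94.9% of the region). XLOC_022047 had 7661 counts (3.51%), XLOC_022048 had 1718 (0.787%) and XLOC_022049 had 1856 (0.850%). The lowest count in any sample was 1258 for ENSOARG00000015112, 17 for XLOC_022047, 5 for XLOC_022048 and 7 for XLOC_022049, and each of these lowest values came from animal 1. Counting error is therefore small for the annotated locus and larger for the last pair of loci. The lengths over which reads were counted are not in the files, so levels of different loci are not compared per length.

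The unannotated loci have a place of their own in the assembly. Locus numbers run along each chromosome 3 times, and on chromosome 3 the first run holds 1203 annotated and 25 unannotated loci, the second 1136 annotated and 19 unannotated loci, and the third 441 unannotated loci and 0 annotated ones. ENSOARG00000015112 is in the first run and the 3 unannotated loci of the region are neighbors in the third. Over all chromosomes the third run holds 5590 loci, of which 5590 are unannotated. Sharing a span with an annotated locus is common, since 1893 of 6373 unannotated loci do so. The counting is not stated to use strand here, so reads of overlapping loci on opposite strands cannot be told apart.

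ENSOARG00000015112 had its highest level in SS and its lowest in SM. In SS it measured 1570, 1288, 1471 and 1556 CPM in animals 1 to 4, and in SM 430.0, 497, 657 and 660 CPM. The lowest SS sample was thus well above the highest SM sample. RF was close to SS, with 1247, 1249, 1222 and 1804 CPM, and animal 4 stood above the other 3. In ST, the fast glycolytic muscle, the values were 1152, 956, 1270 and 1486 CPM, so that ST ranked behind SS and RF only. PM had 910, 1180, 1327 and 1030 CPM, and GB had 749, 1121, 1296 and 1169 CPM. The lower muscles were AD with 520, 885, 920 and 938 CPM, GM with 534, 864, 804 and 878 CPM, and LL with 433, 663, 976 and 649 CPM. Animal 1 was the lowest of the 4 in GB, AD, GM, LL, PM and SM but the highest in SS.

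As mean ± SD over the animals, the order of muscles for ENSOARG00000015112 was SS (1471 ± 130 CPM, n = 4), RF (1380 ± 283), ST (1216 ± 222), PM (1112 ± 181), GB (1084 ± 235), AD (816 ± 198), GM (770 ± 161), LL (680 ± 224) and SM (561 ± 116). Of the 8 pairs of neighbors in this order 0 passed the threshold, with a lowest FDR of 0.217 for GB and AD (log2FC 0.41, quasi-likelihood test of edgeR, Benjamini-Hochberg adjusted within each comparison). SS was the highest muscle in 3 of 4 animals and SM the lowest in 3 of 4. SS did not overlap AD, GM, LL or SM in any sample, and it overlapped the other 4 muscles.

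XLOC_022047, the most counted of the unannotated loci, was also highest in SS and lowest in SM. Its SS samples had 37.7, 60.6, 70.0 and 84.9 CPM and its SM samples 5.81, 25.9, 13.9 and 27.8 CPM. These groups did not overlap, although SS of animal 1 lay far below the other SS samples. In ST the values were 25.3, 23.8, 26.7 and 36.9 CPM, which placed ST seventh of 9. Means were 63.3 ± 19.8 CPM in SS (n = 4), 41.6 ± 12.2 in GB, 38.7 ± 15.0 in RF, 38.6 ± 17.8 in GM, 37.9 ± 7.998 in PM, 29.2 ± 8.28 in AD, 28.2 ± 5.91 in ST, 27.0 ± 5.24 in LL and 18.3 ± 10.4 in SM. SS was the highest muscle in 4 of 4 animals and SM the lowest in 3 of 4. Neighbors in this order passed in 0 of 8 pairs, with a lowest FDR of 0.0921 for LL and SM (edgeR, log2FC 0.61).

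XLOC_022048 followed the same course at a lower level. It had 6.43, 11.7, 16.5 and 20.5 CPM in SS against 1.71, 7.53, 4.55 and 6.03 CPM in SM. The lowest SS sample was below the highest SM sample, so the groups overlap, but within each animal SS was above SM. Its means ran from 13.8 ± 6.09 CPM in SS (n = 4) and 9.59 ± 2.67 in GB through 8.46 ± 3.63 in GM, 8.11 ± 2.83 in RF, 7.82 ± 2.01 in PM, 6.77 ± 2.57 in AD, 6.48 ± 2.34 in LL and 6.45 ± 1.70 in ST to 4.96 ± 2.48 in SM. SS was highest in 4 of 4 animals.

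XLOC_022049 had 7.12, 16.02, 14.4 and 20.5 CPM in SS and 2.39, 8.24, 2.94 and 6.19 CPM in SM, again with some overlap between samples but none within an animal. Here GB came close to SS, with 9.95, 16.9, 12.5 and 13.6 CPM, and GB was the highest muscle in 2 animals while SS was the highest in the other 2. Means were 14.5 ± 5.56 CPM in SS (n = 4), 13.2 ± 2.88 in GB, 9.06 ± 3.62 in RF, 8.07 ± 1.20 in PM, 7.65 ± 2.16 in LL, 7.54 ± 4.49 in GM, 6.49 ± 1.10 in ST, 6.46 ± 3.40 in AD and 4.94 ± 2.77 in SM. The animal 1 sample of GM, at 2.00 CPM, was the lowest of all 36. For XLOC_022048 and XLOC_022049, neighbors in the order passed in 0 of 8 pairs each, with a lowest FDR of 0.248 and 0.421 (edgeR).

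**Figure D1:**
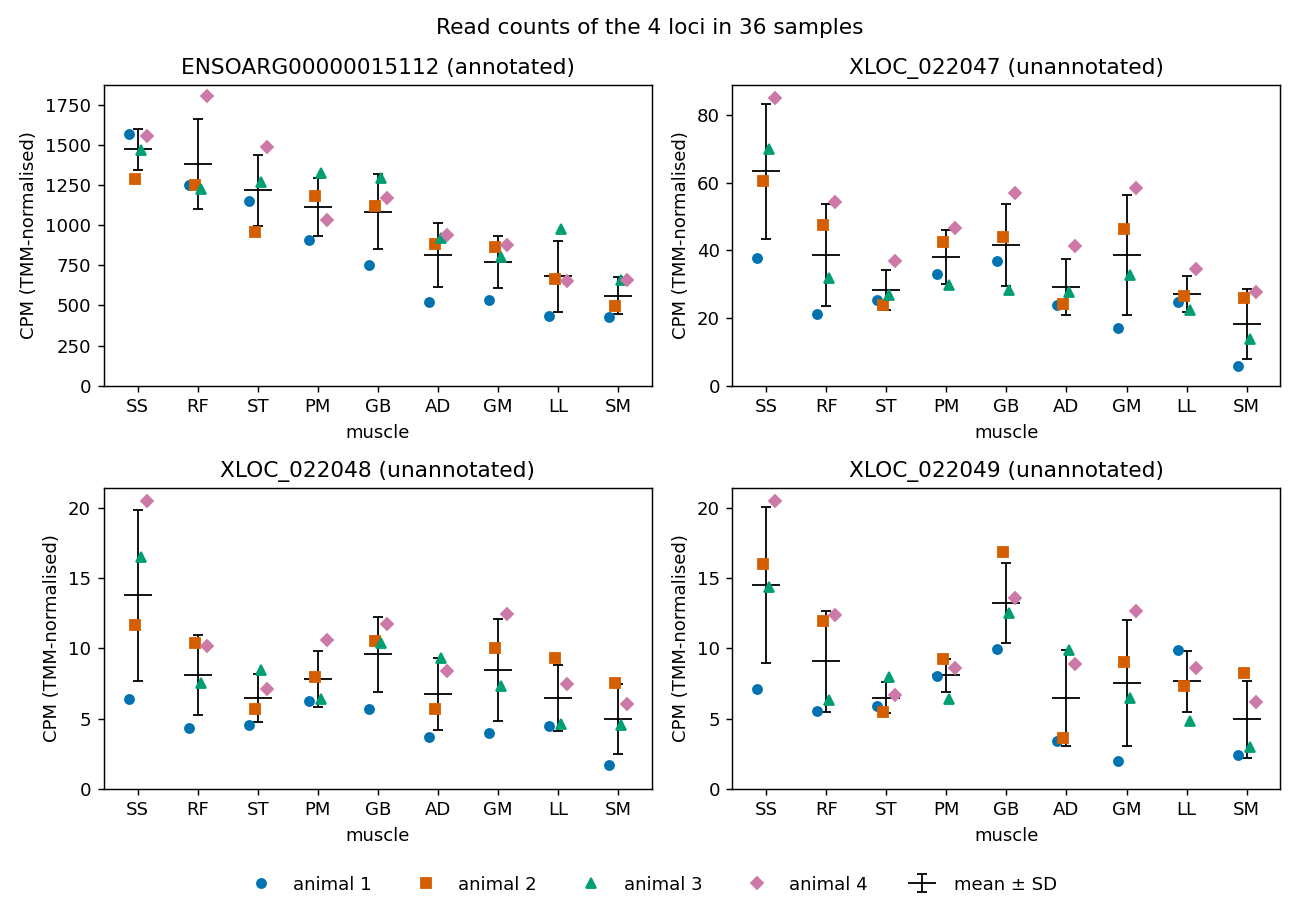
CPM of the 4 loci (vertical axes, linear, each with its own range) in the 9 muscles (horizontal axes, ordered by the mean of ENSOARG00000015112), with a symbol for each animal and bars for mean ± SD over 4 animals. SS has the highest mean and SM the lowest in all 4 panels, whereas ST has the third highest mean for the annotated locus and ranks seventh or eighth for the unannotated loci.

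A joint test of all 9 muscles asked whether each locus differed between muscles, with animal as a block, at an FDR of at most 0.01. All 4 loci passed, with an FDR of 7.7e-07 for ENSOARG00000015112, 1.0e-05 for XLOC_022047, 0.00051 for XLOC_022048 and 0.0035 for XLOC_022049 (quasi-likelihood F test of edgeR, Benjamini-Hochberg adjusted). Of all loci tested 8.94% passed, and of the tested unannotated loci that share the span of an annotated one 9.69% passed. The region was named through the study's list of its most significant genes between SM and SS in these same samples. Passing the joint test is therefore not independent of that choice, and the same limit holds for the comparisons below that use SM or SS. Without the block for animal ENSOARG00000015112 still passed (FDR 0.00023), but XLOC_022047 (0.026), XLOC_022048 (0.138) and XLOC_022049 (0.063) did not. Without animal 4 XLOC_022048 did not pass either (FDR 0.079). XLOC_022049 passed with animal 1 left out (FDR 0.0020) and not with animal 2, 3 or 4 left out (0.024, 0.019 and 0.058).

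Muscles took a larger share of the variance in log2 CPM of the annotated locus than of the unannotated ones. Differences between muscles made up 73.2% of the variance of ENSOARG00000015112 and differences between animals 14.4%. For XLOC_022047 the shares were 51.5% and 30.8%, for XLOC_022048 36.7% and 45.7%, and for XLOC_022049 44.1% and 22.2%. The medians over all tested loci were 28.7% between muscles and 15.4% between animals. XLOC_022048 was the only member with more variance between animals than between muscles.

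In the 36 pairwise comparisons of muscles, a locus passed where its log2FC was above 1 in size and its FDR no higher than 0.01. ENSOARG00000015112 passed in 6 of 36 pairs, XLOC_022047 in 8, XLOC_022048 in 4 and XLOC_022049 in 1, whereas 0.749% of all tests over loci and pairs did so and 90.8% of loci passed in no pair. SS was one of the muscles in 2, 4, 4 and 1 of these pairs, and over the 8 pairs with SS 1.32% of all tests passed. Pairs that share a muscle share its samples, so they are not independent of each other. Without the block the numbers of pairs were 4, 1, 0 and 0. ENSOARG00000015112 passed in 3 pairs without animal 1, and XLOC_022047 passed in 4 pairs without animal 1, 5 without animal 2 and 1 without animal 3 or without animal 4. XLOC_022048 passed in 2 pairs without animal 3 and 0 without animal 4, and XLOC_022049 in 3 without animal 1 and 0 without animal 3 or without animal 4.

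The largest difference of each of the 4 loci was between SM and SS, the pair for which the study lists its unannotated transcript of MYBPC1. That list was drawn from these same samples, and the region takes its name from it. The difference between SM and SS is therefore not independent of that choice and is given as a description. In every one of the 4 animals each locus was higher in SS. The log2FC of SM minus SS was -1.43 for ENSOARG00000015112 (SE 0.16, FDR = 5.9e-06), -1.81 for XLOC_022047 (SE 0.32, FDR = 2.0e-06), -1.40 for XLOC_022048 (SE 0.28, FDR = 0.00012) and -1.47 for XLOC_022049 (SE 0.26, FDR = 0.0020, quasi-likelihood test of edgeR in each case). Between these muscles 2.42% of all loci passed with higher expression in SS. With the likelihood ratio test, the kind the study used, the log2FC was -1.81 for XLOC_022047, -1.40 for XLOC_022048 and -1.50 for XLOC_022049. The log2FC that the study lists for its unannotated transcript is nearest to that of XLOC_022047, which does not prove that they are the same. Without the block XLOC_022048 and XLOC_022049 did not pass (FDR 0.022 and 0.023). Nor did XLOC_022048 without animal 4 (log2FC -1.26, FDR 0.011) or XLOC_022049 without animal 3 (log2FC -1.27, FDR 0.028) or animal 4 (log2FC -1.38, FDR 0.039).

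The other pairs that passed were not the same for the annotated and the unannotated loci. ENSOARG00000015112 was lower in SM than in RF (log2FC -1.32, SE 0.14), ST (-1.14, SE 0.11) and PM (-1.002, SE 0.13), and lower in LL than in SS (SS minus LL 1.16, SE 0.27) and RF (RF minus LL 1.05, SE 0.28). XLOC_022047 was lower in SM than in GB (-1.21, SE 0.42), PM (-1.09, SE 0.41), RF (-1.07, SE 0.21) and GM (-1.05, SE 0.14). It was higher in SS than in LL (SS minus LL 1.20, SE 0.22), AD (SS minus AD 1.11, SE 0.16) and ST (ST minus SS -1.14, SE 0.19). XLOC_022048 was higher in SS than in the same 3 muscles, with log2FC of 1.05 (SE 0.35), 1.00 (SE 0.11) and, as ST minus SS, -1.04 (SE 0.21). Each of these differences had the same direction in 4 of 4 animals. These 3 values of XLOC_022048 are close to the limit of the fold change. The locus passed in 3 pairs in all with RLE size factors, with no filter and with the largest loci taken out. Between ST and SS the annotated locus had a log2FC of -0.29 (SE 0.09, FDR = 0.352, edgeR). A pair that passed for one locus and not for another does not show that the loci differ, which the ratios of their reads address.

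**Figure D2:**
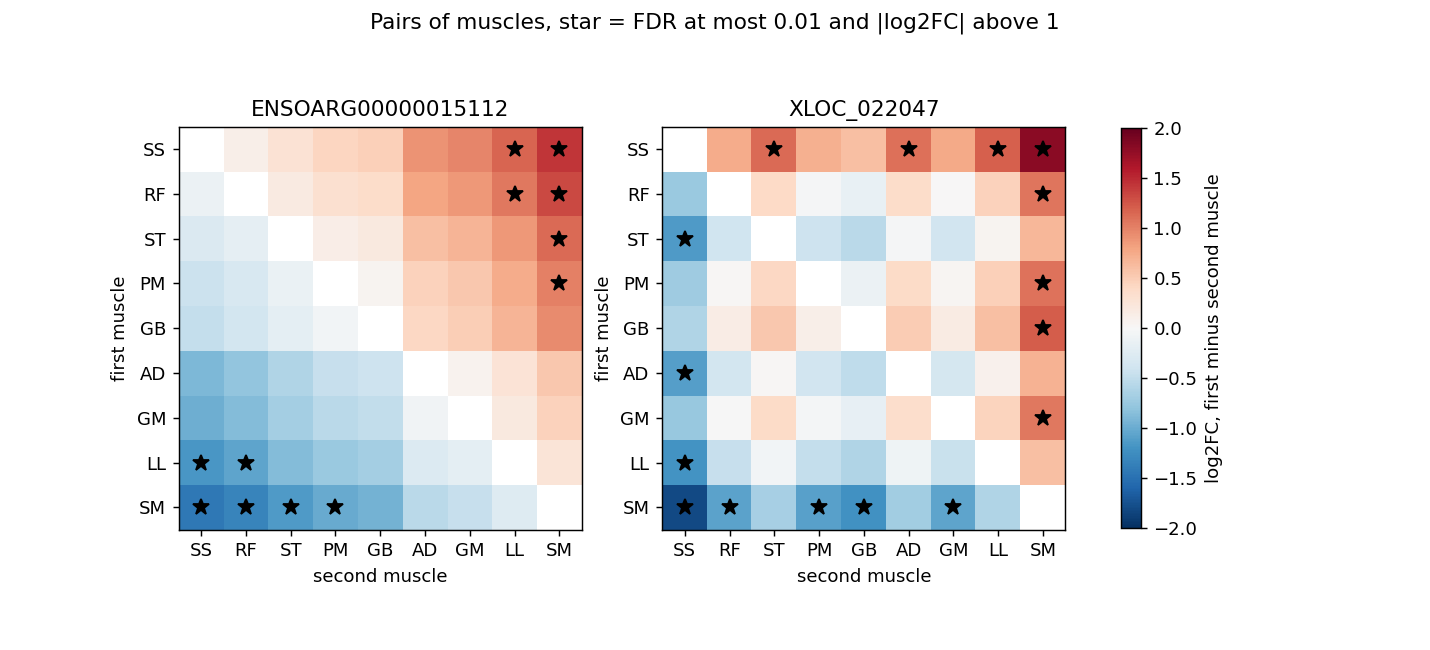
log2FC between every pair of muscles (row minus column, color scale from -2 to 2) for ENSOARG00000015112 (left) and XLOC_022047 (right), with muscles ordered by the mean of the annotated locus and a star where a pair passed. The 6 pairs of the annotated locus all contain SM or LL, and the 8 pairs of XLOC_022047 all contain SM or SS.

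SS was also compared with the mean of the other 8 muscles. XLOC_022047 was higher in SS by a log2FC of 1.01 (SE 0.14) with an adjusted p of 1.2e-05 in the quasi-likelihood test of edgeR and passed, as did 1.05% of all loci in that direction. This value is at the limit of the fold change, and it was 0.83 without animal 3, 0.98 with no filter on low counts and 0.997 with the 6 largest loci taken out, none of which passed. ENSOARG00000015112 had a log2FC of 0.72 (SE 0.16, FDR = 0.00026), XLOC_022048 of 0.90 (SE 0.18, FDR = 9.4e-05) and XLOC_022049 of 0.89 (SE 0.15, FDR = 0.0043), which stayed under the fold change required. XLOC_022048 reached 1.04 without animal 2 and XLOC_022049 reached 1.01 without animal 1, and both then passed. All 4 loci were higher in SS in 4 of 4 animals.

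SM was the muscle at the other end. Against the mean of the other 8 muscles XLOC_022047 was lower in SM by a log2FC of -1.03 (SE 0.35, FDR = 0.00052, edgeR) and passed, as did 0.297% of all loci in that direction. This value too is at the limit of the fold change, and it was not run under the alternatives. The SM sample of animal 1 had 17 counts of this locus. The log2FC was -0.89 for ENSOARG00000015112 (SE 0.06, FDR = 0.00029), -0.68 for XLOC_022048 (SE 0.23, FDR = 0.021) and -0.77 for XLOC_022049 (SE 0.28, FDR = 0.063), which did not pass. In SM 0 of 4 animals were higher than the mean of their other muscles for any of the 4 loci.

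The ratio of unannotated to annotated reads compares the loci within the same library, where sequencing depth cancels. Over all samples there were 3.70 reads of XLOC_022047, 0.83 of XLOC_022048 and 0.896 of XLOC_022049 for every 100 reads of ENSOARG00000015112. In ST the 3 unannotated loci together had 3.101, 3.66, 3.39 and 3.41 reads per 100 annotated reads in animals 1 to 4, the narrowest spread of any muscle. In SS they had 3.26, 6.85, 6.86 and 8.09, in GM 4.34, 7.55, 5.77 and 9.53, and in LL 9.03, 6.53, 3.25 and 7.78. In SM the values ran from 2.31 to 8.39, so that a single muscle covered most of the range of all 36 samples. As a share of all reads of the region, the SM sample of animal 1 had 2.25% unannotated reads, with a 95% confidence interval from 1.51% to 3.22% (exact Clopper-Pearson, counting error only), and that of animal 2 had 7.74%, with an interval from 6.91% to 8.63%.

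By mean ± SD the ratio of all 3 unannotated loci was lowest in ST (3.39 ± 0.228 per 100, n = 4) and RF (4.02 ± 1.29), followed by PM (4.96 ± 1.32), SM (5.004 ± 2.76), AD (5.26 ± 1.11), GB (6.10 ± 1.47), SS (6.27 ± 2.09), LL (6.65 ± 2.48) and GM (6.80 ± 2.24). RF and ST, next to SS the highest muscles in annotated reads, had the lowest ratios for each of the 3 unannotated loci. Annotated reads are the denominator of the ratio, so their level and the ratio are not independent. SS, the highest in annotated reads, had a higher ratio than RF or ST. A difference of the ratio between muscles did not pass a permutation test within animals, with an adjusted p of 0.0956 for XLOC_022047, 0.0956 for XLOC_022048 and 0.173 for XLOC_022049 (100000 permutations, Benjamini-Hochberg over 3 loci, threshold 0.05). Without animal 1 the adjusted p for XLOC_022047 was 0.0159 in the same permutation test.

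Each muscle was then set against the other 8. Of 27 exact permutation tests, 2-sided and 1 for each muscle and unannotated locus, 0 passed after adjustment and 2 had an unadjusted p under 0.05. Both were in ST. There the log2 ratio was lower by a difference of -0.63 for XLOC_022047 (SE 0.12, exact p = 0.0130, adjusted p = 0.202) and -0.62 for XLOC_022048 (SE 0.19, exact p = 0.0149, adjusted p = 0.202). For XLOC_022049 the difference in ST was -0.67 (SE 0.23, exact p = 0.0537, adjusted p = 0.276). In each case 0 of 4 animals were higher in ST, and the smallest p that the 6561 arrangements allow is 0.000152. In GM the differences were 0.50 for XLOC_022047 and 0.47 for XLOC_022048, each with 4 of 4 animals higher, and did not pass (adjusted p = 0.276 and 0.282 in the exact permutation test).

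Between SM and SS the log2 ratio differed by -0.54 for XLOC_022047 (SE 0.28), -0.09 for XLOC_022048 (SE 0.32) and -0.19 for XLOC_022049 (SE 0.36), with exact permutation p of 0.250, 1 and 0.625. With 4 animals this comparison cannot go below 0.125. None of these 3 differences passed, which does not show that the loci change alike. The ratios of the unannotated loci to each other did not pass either, with adjusted p of 0.405 for XLOC_022047 against XLOC_022048, and 0.220 for each of these against XLOC_022049 (permutation test within animals).

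The ratio in the region moved with the same ratio elsewhere in the genome. Outside the region 1890 unannotated loci share the span of 890 annotated ones, and their summed reads were 17.9 to 52.3 per 100 annotated reads, depending on the library. The test of this ratio across muscles did not pass (permutation p = 0.217). With each muscle set against the other 8, this ratio was lowest in SM, by a log2 difference of -0.36 (exact permutation p = 0.016, not adjusted). After the mean of each animal was taken off, it correlated with the ratio in the region with Pearson r of 0.67 for XLOC_022047, 0.57 for XLOC_022048 and 0.55 for XLOC_022049 over 36 samples, which come from 4 animals and share their libraries. SM of animals 1 and 3, with 2.31 and 3.26 per 100 in the region, had 19.6 and 17.9 elsewhere, and SM of animal 2, with 8.39, had 38.4. ST was an exception, since its animal 2 sample had the highest value elsewhere, 52.3, and an ordinary value of 3.66 in the region. What part this has in the levels of the unannotated loci was not tested. Taken relative to the ratio elsewhere, a measure added after the data had been seen, the log2 difference of ST from the other 8 muscles was -0.52 for XLOC_022047, -0.51 for XLOC_022048 and -0.55 for XLOC_022049, and that of RF was -0.40, -0.51 and -0.42. In SM the difference was 0.06, 0.43 and 0.36. None of these passed, with an adjusted p of 0.185, 0.185 and 0.255 in ST, 0.253, 0.185 and 0.446 in RF, and 0.916, 0.253 and 0.519 in SM (exact permutation test).

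**Figure D3:**
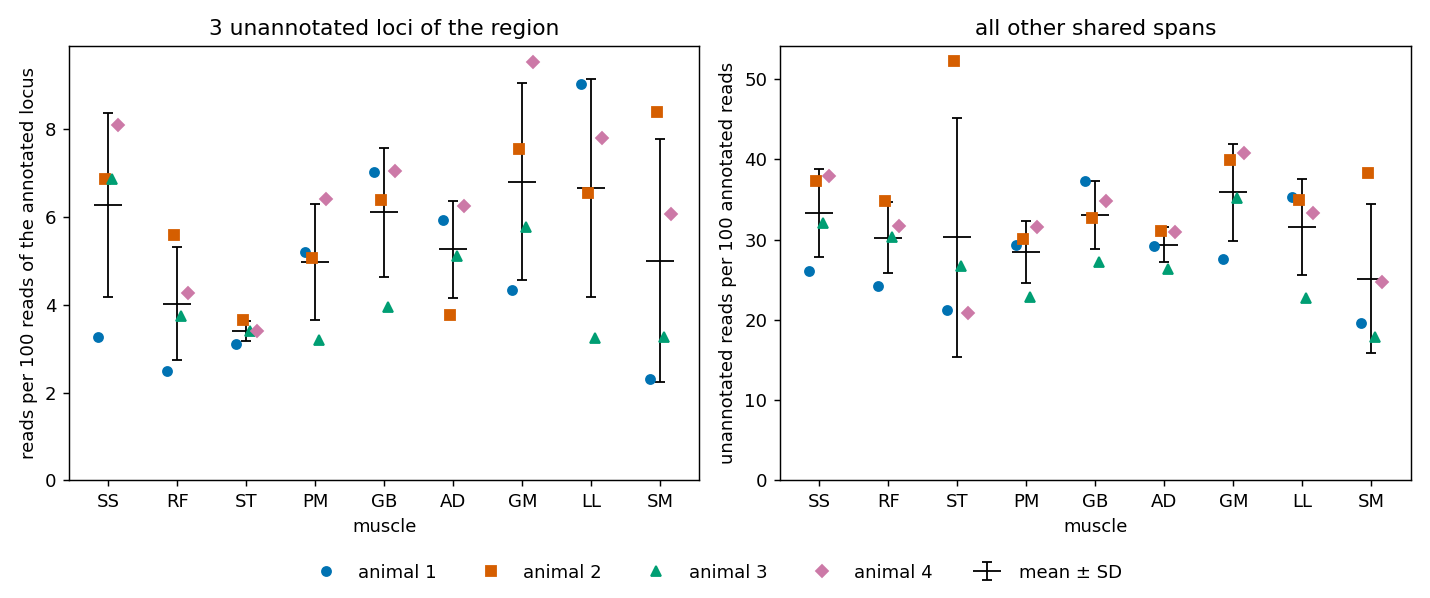
Left, reads of the 3 unannotated loci per 100 reads of ENSOARG00000015112 in each muscle; right, reads of unannotated loci per 100 reads of the annotated loci that share their spans, outside the region (linear vertical axes of different range, a symbol for each animal, bars for mean ± SD over 4 animals). The 4 ST samples lie between 3.101 and 3.66 on the left, and SM of animal 2 is high in both panels while SM of animals 1 and 3 is low in both.

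Sample by sample, the 3 unannotated loci resembled each other more than they resembled the annotated one. With the mean of each animal taken off log2 CPM, Pearson r over the 36 samples was 0.62 between ENSOARG00000015112 and XLOC_022047, 0.54 with XLOC_022048 and 0.48 with XLOC_022049. Among the unannotated loci r was 0.90 for XLOC_022047 and XLOC_022048, 0.85 for XLOC_022048 and XLOC_022049 and 0.81 for XLOC_022047 and XLOC_022049. Over the 9 muscle means the first 3 values were 0.79, 0.75 and 0.72. These are descriptions, since the samples share animals and each pair of loci shares its libraries.

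Genes next to the region are given for comparison. The nearest tested annotated locus, ENSOARG00000015196, begins 13966 bases above the region and had a log2FC of 0.07 between SM and SS. Of the 5 nearest on each side, 0 of 10 passed the joint test and 0 of 10 passed in any pair with edgeR's quasi-likelihood test, its likelihood ratio test or DESeq2. With the first of these tools 8.94% of all loci passed the joint test and 90.8% passed in no pair, so that 0 of 10 is near the background. At an unadjusted p under 0.05 the joint test gave 1, 2 and 0 of 10 with these tools. Their log2FC between SM and SS ran from -0.02 to 0.61.

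**Figure D4:**
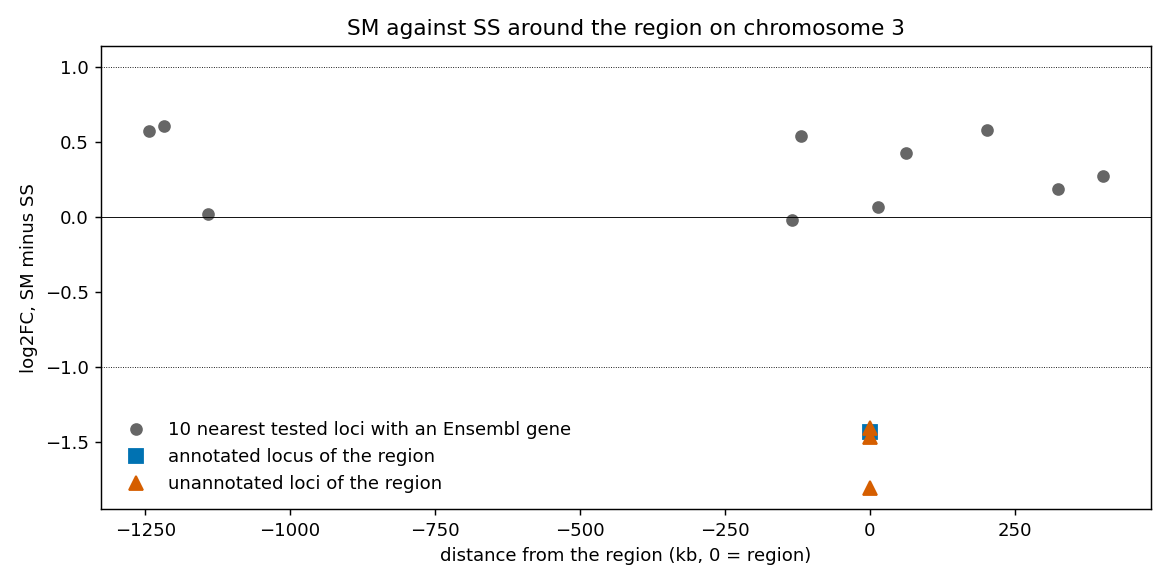
log2FC of SM minus SS (vertical axis) for the 4 loci of the region and the 10 nearest tested loci with an Ensembl gene, against their distance from the region in kb (horizontal axis, 0 at the region, dotted lines at a log2FC of 1 and -1). The 4 loci of the region lie between -1.81 and -1.40 and the 10 neighbors between -0.02 and 0.61.

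Genes of the slow sarcomere are given beside the region as a description. Of the 13 genes on the list, 9 could be paired with a tested locus, all through the coordinates in the study's table of its most significant genes between ST and SS. That table was drawn up from these same samples and lists each of the 9 as lower in ST, so their low level in ST, their difference from SS and their passing the joint test follow from how they could be named, and nothing is read from them. They are the slow troponins TNNT1, TNNC1 and TNNI1, the tropomyosin TPM3, the light chain MYL3, the Z-disc protein MYOZ2, the M-band protein MYOM3, and ATP2A2 and CASQ2, the calcium pump and the calcium store of the sarcoplasmic reticulum. In the joint test 9 of 9 passed, against 8.94% of all loci. Between SM and SS, which uses the same SS libraries, 7 of 9 passed with higher expression in SS, against 2.42% of all loci. Their median log2FC was -1.19 over the 9 genes (0.01 over all tested loci). ATP2A2 is also in the study's list for SM against SS, so its difference there was selected directly. Without animal 2 or without animal 3 the number was 3, and without the block 2.

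TNNT1 had a mean of 23.2 CPM in ST, 225 in SS, 104 in SM and 256 in PM. ATP2A2 had 56.0, 406, 111 and 423 CPM in the same order. MYOZ2 had 2.73 CPM in ST, 54.1 in SS and 33.4 in PM. PM was the highest muscle for TNNT1, ATP2A2, MYL3, TPM3, TNNC1 and TNNI1, and SS for MYOZ2, MYOM3 and CASQ2. ENSOARG00000015112 had 1216 CPM in ST, 1471 in SS, 561 in SM and 1112 in PM. Slow genes that were not chosen on ST and SS were not analysed here, so these values do not show how the region compares with slow genes in general. Over the 36 samples, with animal means taken off, its r with the slow genes ran from -0.04 for CASQ2 to 0.50 for MYOM3, and that of XLOC_022047 from 0.23 for MYL3 to 0.55 for ATP2A2. MYOM3, the 1 of 13 thick filament and M-band genes that could be paired, had 42.3 CPM in SS, 9.39 in SM and 5.43 in ST.

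Of 14 genes of fast fibers 1 could be paired, through the study's table of SM against SS, and its difference between these muscles is likewise no finding. It is PVALB, which encodes parvalbumin, the calcium buffer of fast fibers. PVALB had means of 7.32 CPM in RF, 5.70 in ST and 5.65 in SS and was below 0.7 CPM in the other 6 muscles, a level near that of 3 counts. Its r with ENSOARG00000015112 was 0.72 over the 36 samples, and 0.28 with XLOC_022047. PVALB and the region were both named through that table, so a shared difference between SM and SS enters r, which is given as a description. RF, ST and SS are also the 3 muscles with the most ENSOARG00000015112.

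**Figure D5:**
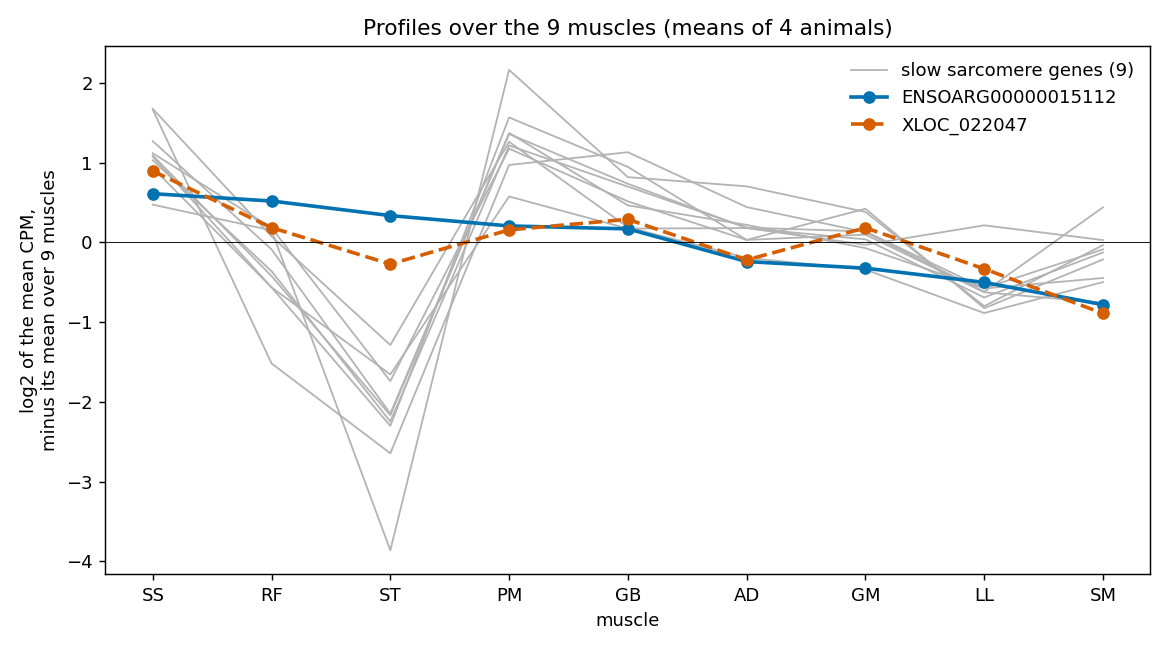
log2 of the mean CPM of each muscle minus its mean over the 9 muscles (vertical axis) for ENSOARG00000015112, XLOC_022047 and the 9 paired slow sarcomere genes (gray), with muscles ordered by the annotated locus (means of 4 animals, no error shown). The gray lines have their minimum at ST, and these genes were listed by the study for lower expression in ST than in SS. ENSOARG00000015112 is above its own mean at ST.

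The loci whose pattern over the 36 samples was most like that of ENSOARG00000015112 lie on other chromosomes or far away on chromosome 3. The closest were ENSOARG00000011424 on chromosome X (r = 0.89) and ENSOARG00000020376 on chromosome 1 (r = 0.87). CLIP4, a protein that binds microtubules, followed with r = 0.82 and EYA1, a transcriptional co-activator of muscle development, with r = 0.82. Both names come from the study's table of SM against SS, and the log2FC between these muscles was -1.26 for CLIP4 and -2.64 for EYA1, given as a description. XLOC_022047 was most like XLOC_018885 on chromosome 25 (r = 0.86) and XLOC_023926 on chromosome 5 (r = 0.84), and 4 of its 5 closest loci outside the region were unannotated. All 5 closest loci of ENSOARG00000015112 were annotated. Of all 31136 loci, tested or not, 24763 are annotated and 6373 are not, so this last count is near that share. The 4 of 5 unannotated loci closest to XLOC_022047 are above it. Both counts rest on 5 loci picked from the tested ones only, among which the share was not computed, so nothing is read from them. These r are over samples that share animals and libraries, and they were picked as the highest of all tested loci.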

How the data were processed

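The authors mapped the reads to Oar_v3.1 with TopHat2 2.0.13, merged Cufflinks 2.2.1 assemblies with the Ensembl annotation, and deposited raw counts per locus from htseq-count, 1 table for each of the 36 samples. Each table has 31530 entries, and the 394 entries that repeat a locus under a further gene were removed. The start of each span, which counts from 0 in the files, was raised by 1.

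Loci were filtered with filterByExpr by muscle (12461 left), normalized by TMM and fitted with muscle and animal in edgeR 4.0.16 (R 4.3.3), with DESeq2 1.42.0 as an alternative. The study's methods name a likelihood ratio test, which was run as an alternative to the quasi-likelihood test used here. The common biological coefficient of variation was 0.195. Adjusted p are over all loci tested within a comparison. Each SE was computed from the differences between muscles in the 4 animals, in log2 CPM with a prior count of 2. Log2 ratios used 0.5 added reads, and permutation tests and intervals used NumPy 2.4.6 and SciPy 1.17.1. The procedures were tested on simulated data.

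Samples of the same number come from the same lamb. Deviations from the muscle means correlated at 0.236 on average over 144 pairs of samples of 1 animal, with a lowest value of -0.0242, against -0.0777 between animals. Taking off the muscle means ties the value between animals to that within animals, so it is no separate evidence of the pairing. All 54 pairs of animals within a muscle differed by more than counting noise (chi-square per degree of freedom 5.12 to 34.7). The labels do not say which sequencing lane held which sample. With no molecular identifiers, floors and intervals cover counting error only.

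The members and the gene lists were chosen with earlier results of these data known. Named genes are the loci of the region, the list genes with a paired locus, the 5 nearest tested annotated loci on each side, and the 5 loci with the highest r with ENSOARG00000015112 and with XLOC_022047. Not each of them is printed. Names were assigned where the study's coordinates fell in the span of a single tested annotated locus. Alternatives were other size factors, filters and tests, leaving out the largest loci or each animal, fits to 8 samples, no animal block, and for ratios another pseudocount, another denominator and the ratio elsewhere. Sequences and exon structure were not analysed here.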

Additional observations from a re-analysis of the deposited data

Results flagged for a closer look

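In 2 of 72 groups of 4 samples, the highest or lowest sample stood apart from the other 3 by more than the 95% limit of Dixon's test, where chance gives about 1 in 20 groups, or 3.6. Both concern the annotated locus ENSOARG00000015112. The RF sample of animal 4 had 1804 CPM, against 1222 to 1249 CPM in the other 3 animals. The AD sample of animal 1 had 520 CPM, against 885 to 938 CPM in the others.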

How the results depend on the processing

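All log2FC between SM and SS and of SS against the other 8 muscles kept their direction under the alternatives run. Without the replicate block for animal, the joint FDR was 0.026, 0.138 and 0.063 for XLOC_022047, XLOC_022048 and XLOC_022049, which passed in 1, 0 and 0 pairs. XLOC_022048 (log2FC -1.38) and XLOC_022049 (-1.45) then did not pass between SM and SS, where 2 slow genes and 115 loci of all did (363 with the block). With each animal left out in turn, pairs passed ranged from 3 to 6 for ENSOARG00000015112, 1 to 5 for XLOC_022047, 0 to 3 for XLOC_022048 and 0 to 3 for XLOC_022049. The joint FDR ranged from 0.00051 to 0.079 for XLOC_022048 and from 0.0020 to 0.058 for XLOC_022049, and their log2FC between SM and SS from -1.75 to -1.23 and from -1.78 to -1.27. SS against the other 8 ranged from 0.83 to 1.08 for XLOC_022047, 0.78 to 1.04 for XLOC_022048 and 0.80 to 1.01 for XLOC_022049. Slow genes higher in SS than in SM ranged from 3 to 7 and all loci passed from 129 to 298. The adjusted p of the ratio of XLOC_022047 ranged from 0.0159 to 0.555 (permutation test).

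With no filter, SS against the other 8 was 0.98 for XLOC_022047, XLOC_022049 passed in 6 pairs, and 661 loci passed between SM and SS, against 153 with at least 10 counts in every sample, a filter that removes XLOC_022048 and XLOC_022049. With the largest loci taken out, SS against the other 8 was 0.997 for XLOC_022047. XLOC_022048 passed in 3 pairs with RLE size factors, with no filter and with the largest loci taken out. XLOC_022049 passed in 2 pairs with the likelihood ratio test and in 2 with DESeq2. In fits to the 8 samples compared, 1, 5 and 3 pairs passed for ENSOARG00000015112, XLOC_022047 and XLOC_022049. The causes were not tested. The exact test of single muscles without the block was not run. Depth limits XLOC_022048 and XLOC_022049, with as few as 5 and 7 counts in a sample.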
